A study of Mus musculus with 4 samples.

Results

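The control HT22 line of a MEIS2 overexpression study was described here through its 2 RNA-seq libraries, out of 4 libraries in the series. They were chosen by label alone, as the 2 libraries named as controls, and no value decided their choice. HT22 is an immortalised mouse hippocampal nerve cell line. The control line was made alongside a second HT22 line that overexpresses MEIS2, a homeodomain transcription factor, and which is not described here. The labels do not say what construct the control line carries, whether it is 1 clone or a pool of cells, or whether the 2 libraries came from separate cultures. RNA with poly(A) tails was selected and fragmented before sequencing, per the labels' protocols.

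The deposited values are read counts per gene. A count scaled to its library's total is given as CPM, which removes the difference in sequencing depth, and a CPM divided by the deposited gene length in kilobases allows levels of different genes to be compared. Pairs of values below give replicate 1 and then replicate 2. The libraries held 16903967 and 16445575 counts. A gene was called detected when it had at least 3 counts in each library, and 3 counts were worth 0.177 and 0.182 CPM.

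HT22 cells were derived from HT4, a line immortalised from mouse hippocampal tissue, and are used mostly to study death by oxidative stress. In them, glutamate in the medium blocks the cystine and glutamate exchanger, which starves the cell of cystine for glutathione, rather than acting through glutamate receptors. A resting mature neuron is known for synaptic proteins, neurofilaments, ion channels and transmitter receptors, and a dividing progenitor for nestin, vimentin and cell cycle genes.

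Most annotated genes were silent or below the floor in the control line. Of 56748 genes in the table, 37911 had no count in either library and 13776, or 24.3%, were detected. Among protein-coding genes 11634 of 21970 were detected, or 53.0%, and 8490 had no count at all. The number of detected members in each list of protein-coding genes below stands beside that share of 53.0%. A further 1445 genes had a count in replicate 1 only and 1914 in replicate 2 only, and none of the first kind held more than 14 counts or of the second more than 21. The median level of detected protein-coding genes was 4.75 and 5.83 CPM per kilobase.

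Most protein-coding genes were expressed at low levels and a small class at very high ones. Of those detected, 2362 had a mean level under 1 CPM per kilobase, 5041 lay between 1 and 10, 3671 between 10 and 100, and 560 above 100. Those 560 genes, 2.55% of the protein-coding genes, held 44.4% and 39.7% of all counts. Their median length was 2294 bases, against 5495 bases in the class under 1 and 5458 bases in the class from 1 to 10. Transcription factors made up 14.1% of the lowest detected class and 1.96% of the highest.

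A few genes took much of each library. The 10 genes with the most counts held 6.80% and 6.36% of them, the top 100 held 24.0% and 21.4%, and the top 1000 held 59.7% and 56.1%. Of the 100 most abundant genes of each library, 92 were shared. It took 602 genes to reach 50% of the counts in replicate 1 and 732 in replicate 2, so replicate 1 was the more concentrated library.

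Of the 20 highest protein-coding genes per length, 10 encode ribosomal proteins or translation factors and 3 are interferon-induced. Lgals1, which encodes the secreted lectin galectin-1, was highest of the protein-coding genes at 7064 and 4983 CPM per kilobase. It was followed by Eef1a1, the elongation factor that brings charged tRNA to the ribosome, at 4049 and 4641 CPM per kilobase. Ifitm3, a membrane protein that blocks virus entry, stood at 4903 and 3656 CPM per kilobase. The order of these leading genes was not the same in both libraries, since Ifitm3 ranked above Eef1a1 in replicate 1 and below it in replicate 2.

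Ribosomal stalk proteins came next, with Rplp1 at 3991 and 3416 and Rplp0 at 3799 and 3229 CPM per kilobase. The elongation factor Eef2, which moves the ribosome along the mRNA, had 2563 and 2389.9 CPM per kilobase, and Eif3h, an initiation factor subunit, 1694 and 1619. Ferritin light chain Ftl1 stood at 2336 and 1869 CPM per kilobase, the cytokine Mif at 2224 and 1481, the pyruvate kinase Pkm at 1978 and 1465 and the endoplasmic reticulum chaperone Calr at 1351 and 1426. The lowest of the 20, the ribosomal protein gene Rps4x, still had 1344 and 1144 CPM per kilobase.

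**Figure D1:**
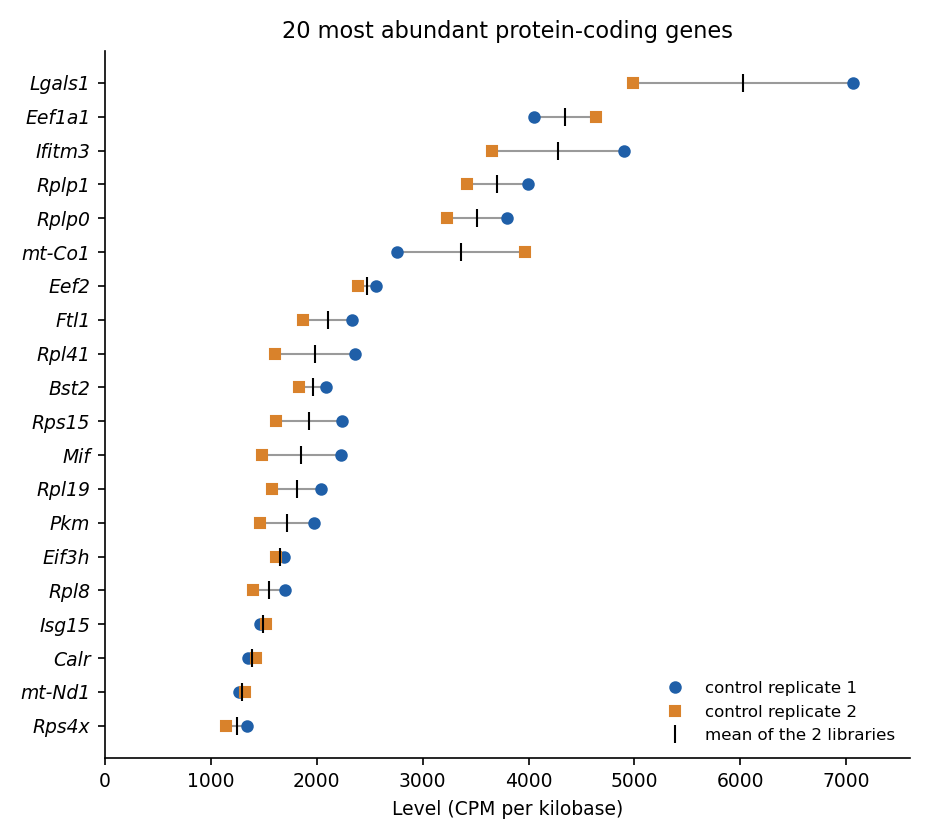
Levels of the 20 protein-coding genes with the highest mean CPM per kilobase in the control HT22 line, with a circle for replicate 1, a square for replicate 2 and a bar for their mean. Lgals1 leads in both libraries, and with no scaling beyond the total count mt-Co1 and Eef1a1 lie higher in replicate 2 while most others lie higher in replicate 1.

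Ribosomal protein genes, whose products build the 2 subunits of the cytosolic ribosome, held more counts than any other list described. They took 7.52% and 6.48% of all counts, and 80 of 83 were detected with a median of 344 CPM per kilobase. The 3 not detected were Rpl3l, Rpl10l and Rpl39l, the paralogs known mainly from muscle and testis, each with no count in either library. Detected members covered a wide range, from the highest, Rplp1, down to Rpl24 at 0.345 and 0.59 CPM per kilobase. Rpl41, the shortest ribosomal protein, had 2360.2 and 1609.8 CPM per kilobase, Rps15 2236 and 1615 and Rpl19 2039 and 1579.9.

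Several low ribosomal protein genes had near-identical processed pseudogenes that held most of their kind of read. Rps10 had 81 and 119 counts, while its copies held 6219 and 4585, of which Rps10-ps2 alone had 5859 and 4274 and was 99.0% identical over 496 bases. Rpl24 had 6 and 10 counts and its copies 293 and 229. Rpl34 had 1990 and 1725 counts and its copies 5174 and 4881. The counts of Rps2 were split almost evenly, with 29610 and 26232 in the gene and 22665 and 21979 in its copies. The labels and the table do not say how a read that matches several genes was counted, so the level of such a gene is uncertain.

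Mammalian ribosomal protein mRNAs are known to start with a C in a run of pyrimidines, through which their translation is tied to growth signals. The windows of 30 bases around the RefSeq start site (GRCm38.p6, from 20 bases before it to 9 after) are shown for 5 abundant members and for Rplp0. Each of the 5 holds a C at the annotated start with 4 pyrimidines after it, so they do not stand for all members. Capitals mark the unbroken run of C and T that covers the annotated start, which is base 21 of each window.
Rps6 (chr4:86857358-86857387, minus strand): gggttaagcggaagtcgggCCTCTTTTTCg
Rpl35 (chr2:39005122-39005151, minus strand): gaagtcggccccgCCCTTTCCTCTTTCTCT
Rpl28 (chr7:4792945-4792974, plus strand): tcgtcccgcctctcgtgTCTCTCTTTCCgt
Rplp2 (chr7:141447631-141447660, plus strand): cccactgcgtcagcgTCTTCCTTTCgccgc
Rpl15 (chr14:18270977-18271006, minus strand): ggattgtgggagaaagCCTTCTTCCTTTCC
Rplp0 (chr5:115559447-115559476, plus strand): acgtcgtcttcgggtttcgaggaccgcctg

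A C at the annotated start followed by 4 pyrimidines was present in 11 of 53 ribosomal protein promoters in the table, or 20.8%, and in 2.21% of all 14058 protein-coding promoters matched. The Rplp0 window holds no such run at its annotated start, although Rplp0 had the most counts of the ribosomal protein genes and the second highest level per kilobase. Annotated starts can lie a few bases from the used one, so a window without a match says only that these letters are not at that position.

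Split by gene_biotype, the class given in the table, protein-coding genes held 96.96% and 96.82% of counts. The share was 90.62% and 90.05% when each count was first divided by gene length. The Wilson 95% interval of any such share was at most 0.0126 percentage points wide to each side, and it covers counting error only. The spread between the libraries was larger than that for every class above 0.5% of counts.

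Pseudogenes were the second class, with 1.57% and 1.52% of counts and 948 of 13649 detected. Of the detected ones, 850 aligned with a protein-coding transcript, with 90% of the aligned bases identical or more and an alignment of 150 bases and 50% of the pseudogene as the minimum. Those and other matched copies held 96.3% and 95.9% of pseudogene counts, and copies of ribosomal protein genes alone held 46.4% and 45.9%. Rps2-ps10, a copy of Rps2, had the most counts in replicate 2, with 15149 and 14484. Gm13394 had the most in replicate 1, with 18127 and 12306, and is 99.9% identical over 1000 bases to Gapdh. Gapdh, the glycolytic enzyme often used as a reference, had 375 and 237 counts itself. Its 172 copies together had 21205 and 14581 counts, so the row named Gapdh held 1.74% and 1.60% of the counts in the family.

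A gene and its copy could differ in opposite directions between the libraries. Ppia, the abundant prolyl isomerase cyclophilin A, had 27697 and 21234 counts, higher in replicate 1. Its copy with the most counts, Gm10123, identical over 422 bases, had 3483 and 7962, higher in replicate 2. Summed over the gene and its 35 copies, the counts were 31404 and 29410, a log2 difference in CPM of 0.05.

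Ribosomal RNA, which lacks a poly(A) tail, still took 0.777% and 0.853% of counts, nearly all of it in Rn18s-rs5 with 131309 and 140326 counts. Long noncoding RNAs, with 1038 of 11288 detected at a median of 0.432 CPM per kilobase, held 0.531% and 0.600%. A single model, Gm46620, had 38219 and 41458 of those counts, or 1206 and 1344 CPM per kilobase. AI506816, 90.8% identical to it over 1857 bases, had 5007 and 5255 counts, so both levels are uncertain. Among the functionally studied ones, Snhg8, a host gene of a small nucleolar RNA, had 19.1 and 16.2 CPM per kilobase and Norad, which sequesters Pumilio proteins, 7.01 and 10.7. The nuclear RNAs Malat1 at 3.15 and 6.22 and Neat1 at 1.71 and 2.97 CPM per kilobase were both higher in replicate 2.

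Structural and small noncoding classes, ribosomal RNA and mitochondrial tRNA included, were nearly absent by number, with 38 of 6108 genes detected, among them 17 of 1507 small nucleolar RNAs and 6 of 2206 microRNA genes. No immunoglobulin or T cell receptor segment was detected among 702. Histone genes differed by kind. The 19 listed replication-dependent histone genes, whose mRNAs end in a stem-loop and not in a poly(A) tail, summed to 40.03 and 35.07 CPM per kilobase with 13 detected. H1f2 alone had 26.0 and 19.9 of that sum. The 10 listed variant histone genes with poly(A) tails were all detected and summed to 1078 and 1030 CPM per kilobase, led by H2az1 at 354 and 315.

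Genes of the mitochondrial genome held 0.792% and 1.09% of counts. Of 13 mitochondrial mRNAs 12 were detected, and all 12 were higher in replicate 2 in CPM, or 11 with TMM scaling, which sets the bulk of genes level. The complex IV subunit mt-Co1 stood at 2757 and 3964 CPM per kilobase and the complex I subunit mt-Nd1 at 1269 and 1327. Other subunits of complex IV, mt-Co2 at 26.1 and 43.8 and mt-Co3 at 31 and 39.6 were far lower, and mt-Atp8 had 1 and 2 counts. Pseudogene models with 100% identity over the aligned length, 681 bases for mt-Co2 and 783 for mt-Co3, held 212 and 307 counts for mt-Co2 and 308 and 446 for mt-Co3. Nuclear genes for the same respiratory chain were detected in 40 of 41 cases with a median of 71.6 CPM per kilobase, led by Cox6a1 at 967 and 736.

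**Figure D2:**
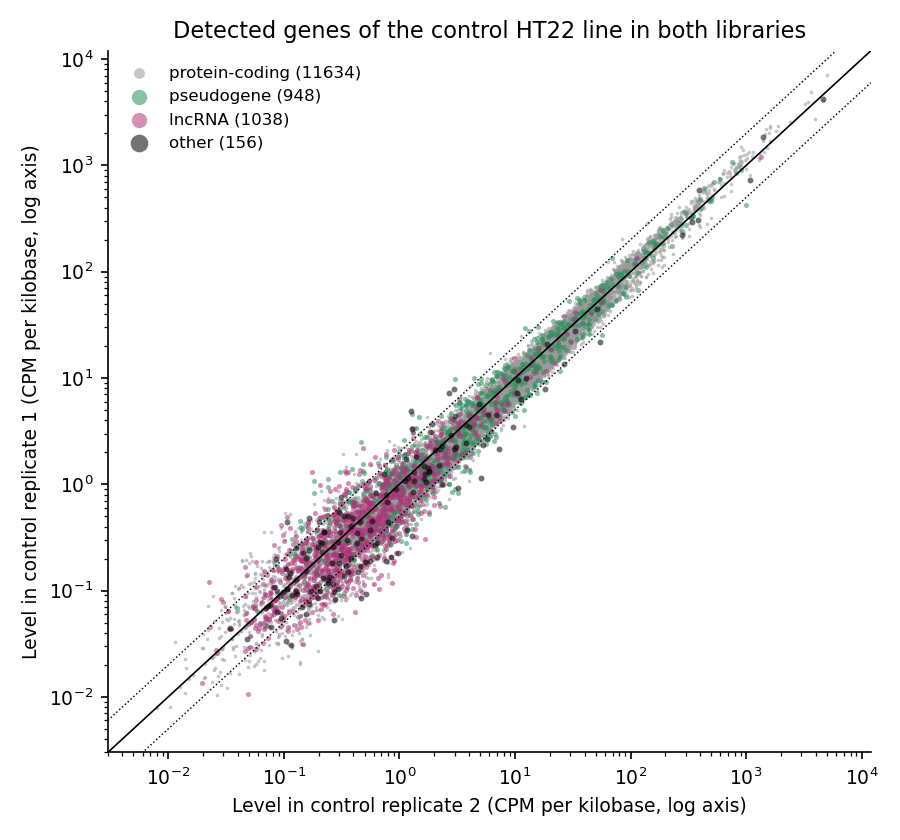
Level of each of the 13776 detected genes in replicate 1 against replicate 2, both in CPM per kilobase on log axes, coloured by gene_biotype class, with the number of genes in the key. The solid line marks equal levels and the dotted lines a 2-fold difference. Most genes lie between the dotted lines, and long noncoding RNAs gather at the low end.

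Genes of mature neurons were mostly undetected in the control line. Of 24 markers of hippocampal and cortical neurons, 8 were detected, against 53.0% of all protein-coding genes, and 15 had no count in either library. The 15 included Snap25 and Syt1 of the synaptic release machinery, Rbfox3 (NeuN), the neurofilaments Nefl and Nefm, Dcx, Elavl3, Elavl4, the neurogenic factors Neurod1, Neurod2 and Neurod6, the dentate gyrus factor Prox1 and the vesicular glutamate transporter Slc17a6. No count in either library allows up to 0.177 and 0.182 CPM, the value of 3 counts. Tubb3, neuronal beta-III tubulin, was the exception at 10.8 and 8.56 CPM per kilobase. The adhesion molecule Ncam1 had 1.37 and 1.67 CPM per kilobase and the dendritic Map2 0.367 and 0.432.

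Receptors and channels for neuronal signalling followed the same pattern. Of 18 ionotropic glutamate receptor subunits only Grik5, a kainate receptor subunit known not to form channels alone, was detected, at 14 and 11.4 CPM per kilobase, and 13 had no count. None of 8 metabotropic glutamate receptors was detected. Of 18 GABA-A receptor subunits 1 was detected, Gabre at 0.212 and 0.218 CPM per kilobase, and 16 had no count. Of 22 cholinergic genes 2 were detected, the nicotinic subunits Chrnb1 at 2.13 and 2.19 and Chrnb2 at 0.0918 and 0.174 CPM per kilobase, and Chat, the enzyme that makes acetylcholine, had no count. Pore subunits of voltage-gated sodium and calcium channels were detected in 6 of 19 cases, led by Cacna1a, the P/Q-type calcium channel, at 1.04 and 1.44.

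The secreted neurotrophin Bdnf had 1.38 and 2.2 CPM per kilobase. Of the neurotrophin receptor genes, Ntrk2 and Ngfr had no count and Ntrk3 had 2 and 1. Of 23 presynaptic vesicle proteins 13 were detected, a share near that of all protein-coding genes. Among them Vamp3, at 31.5 and 36.4 CPM per kilobase, belongs to secretion machinery that many cell types use.

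Of 15 progenitor markers 7 were detected, a share near the 53.0% of all protein-coding genes. Vim, the intermediate filament vimentin, reached 514 and 639.9 CPM per kilobase, and Nes, nestin of neural stem cells, 24.9 and 34. Pax6, of radial glia, stood at 2.11 and 2.92 CPM per kilobase, above the floor in each library. Sox1, Sox2, Hes5, Neurog2, Prom1 and Fabp7, also on that list, had no count in either library.

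Mesenchymal genes were the most completely detected of the cell type lists, with 15 of 20 above the floor at a median of 7.46 CPM per kilobase. The matrix glycoprotein Sparc reached 398 and 429 CPM per kilobase, the calcium-binding S100a4 145 and 149, type I collagen Col1a1 39.9 and 37.2 and fibronectin Fn1 31.9 and 40.2. The mesodermal factor Twist1 had 14.9 and 19.8 CPM per kilobase. Thy1, Lum and Postn, also on that list, had no count.

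Other cell types were represented by few genes. Microglia and macrophage markers were detected in 2 of 12 cases, Tmem119 at 13.7 and 10.8 and Cd68 at 8.38 and 8.71 CPM per kilobase, with no count for Cx3cr1, P2ry12, Itgam or Ptprc. Of 10 astrocyte markers 4 were detected, led by glutamine synthetase Glul at 13.5 and 11.9, while Gfap had 1 and 0 counts and Aqp4 none. Of 10 oligodendrocyte markers 3 were detected, with the proteoglycan Cspg4 at 11.5 and 12.5 and no count for Olig1, Olig2, Sox10 or Mog. Endothelial cells showed 1 of 8 markers, Vwf at 0.0773 and 0.0908, and epithelial cells 2 of 12, the keratins Krt8 at 0.272 and 0.217 and Krt18 at 0.206 and 0.169 CPM per kilobase. Smooth muscle showed 3 of 10, with Tpm2 at 58.4 and 48.5 and Acta2 at 15.2 and 11.6. GABAergic interneurons showed 3 of 11, the transcription factors Lhx6, Dlx2 and Dlx1, each under 1 CPM per kilobase, without Gad1, Gad2 or Slc32a1. In bulk RNA, few cells with much of an mRNA and many cells with little of it cannot be told apart.

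**Figure D3:**
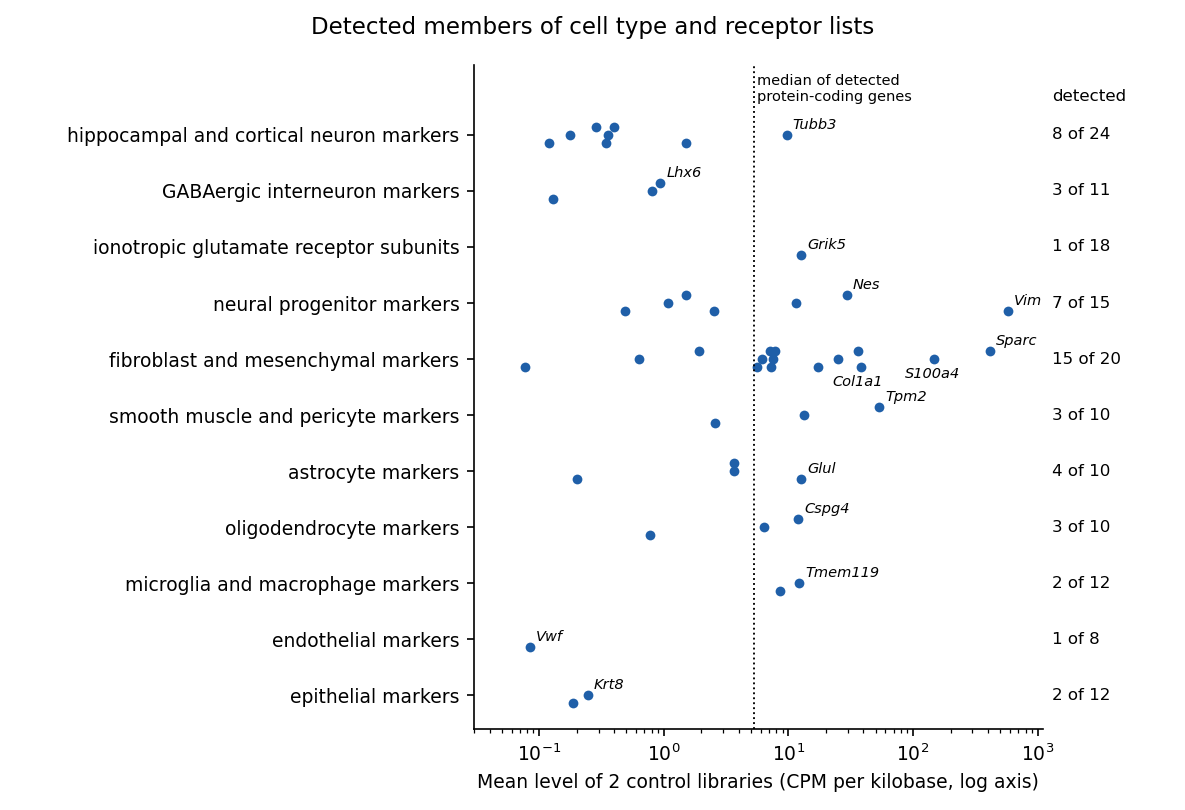
Mean level in CPM per kilobase (log axis) of each detected member of 11 lists of cell type markers and receptor subunits in the control line, with the number detected of the number listed at the right. The dotted line is the median of detected protein-coding genes, 5.32 CPM per kilobase; most mesenchymal markers lie to its right, and of the detected neuron markers Tubb3 alone does.

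Genes of the defence against oxidative stress were detected almost in full. All 21 genes of the NRF2 and redox list were detected, at a median of 77.9 CPM per kilobase, and 20 of them lay above the protein-coding median. The autophagy receptor Sqstm1 led at 788 and 724 CPM per kilobase, with thioredoxin Txn1 at 217 and 226 and the peroxiredoxin Prdx2 at 206 and 167. The heme oxygenase Hmox1 stood at 97.4 and 92.5, the quinone reductase Nqo1 at 77.3 and 78.5 and Nfe2l2, which encodes NRF2 itself, at 11.1 and 14.3 CPM per kilobase.

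The cystine exchanger was uneven in its 2 chains. Slc7a11, the transport chain that gives the exchanger its specificity, had 0.629 and 1.15 CPM per kilobase, or 148 and 264 counts, and was higher in replicate 2. Slc3a2, the heavy chain that it shares with other amino acid transporters, had 182 and 164 CPM per kilobase. Of 22 genes for cystine uptake and glutathione 19 were detected, led by Gpx4, the peroxidase that repairs lipid peroxides, at 683 and 504. The rate-limiting glutathione synthesis chains Gclc and Gclm stood at 6.49 and 9.82 and at 5.23 and 6.7 CPM per kilobase. Of 17 genes of iron handling and lipid peroxidation 14 were detected, and Fth1, ferritin heavy chain, had 1064 and 866. The lipoxygenases Alox5 and Alox15 had no count and Alox12 had 1 and 0.

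The cell cycle list was detected in 27 of 28 cases, beside 53.0% of all protein-coding genes, with Cdkn1c at 1 and 0 counts as the exception. Cdkn2a, the locus of the cyclin kinase inhibitor p16 and of ARF, was its highest member at 355 and 391 CPM per kilobase. The kinase Cdk4 followed at 251 and 217 and the tumour suppressor Trp53 at 119.7 and 106, while Rb1, the retinoblastoma protein, had only 0.452 and 0.505. The replication clamp Pcna had 54 and 72 CPM per kilobase and cyclin D1, Ccnd1, 43.6 and 57.6. Of 16 BCL2 family genes 12 were detected. The death effectors Bak1 at 153 and 127 and Bax at 101 and 90.2 lay above the survival genes Mcl1 at 37.1 and 43.7, Bcl2l1 at 14 and 12.3 and Bcl2 at 0.904 and 1.12 CPM per kilobase.

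Glycolysis was detected in 20 of 22 genes at a median of 49.3 CPM per kilobase and held 3.74% and 2.76% of all counts. Besides Pkm, the isomerase Tpi1 stood at 1501 and 908 CPM per kilobase, aldolase Aldoa at 1411 and 943 and lactate dehydrogenase Ldha at 1334 and 1057, all higher in replicate 1. Gapdh had only 5.37 and 3.49 in its own row. With its copies counted to the same length it would have 309 and 218 CPM per kilobase.

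Imprinted genes are expressed from a single parental copy. Of 28 listed, coding and noncoding, 9 were detected, beside 24.3% of all genes and 53.0% of protein-coding genes, and 16 had no count, among them H19, Igf2, Meg3, Peg3, Dlk1, Grb10, Plagl1 and Snrpn. The highest were Gnas, a G protein subunit locus, at 5.48 and 6.55 CPM per kilobase, Impact at 4.22 and 6.54 and Igf2r at 2.5 and 3.52. Of the X and Y chromosome genes, the Y-linked Eif2s3y at 1.36 and 1.67, Ddx3y at 0.865 and 1.46, Kdm5d at 0.382 and 0.493 and Uty at 0.344 and 0.491 CPM per kilobase were detected, and Xist had no count.

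Of 19 amyloid and tau genes 16 were detected. App, the amyloid precursor, had 11.3 and 14.1 CPM per kilobase, the gamma-secretase subunit Psenen 58.8 and 45.2, and Mapt, which encodes tau, no count. Of 32 nuclear receptors 24 were detected, beside 53.0% of all protein-coding genes. The list was led by the retinoic acid receptor Rarg at 55.5 and 52.4 and the oxysterol receptor Nr1h2 at 54.6 and 39.7. The glucocorticoid receptor Nr3c1 had 3.64 and 6.15 CPM per kilobase, and Esr2, Pgr and Nr3c2 had no count.

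Genes that answer to type I interferon were high in both libraries. This list and those in the next paragraph were drawn up after the values had been seen, so their completeness is a description and supports nothing. All 46 interferon-stimulated genes and regulators listed were detected, and 43 lay above the median of detected protein-coding genes. Besides Ifitm3, the tetherin gene Bst2 reached 2091 and 1829.9 CPM per kilobase and the ubiquitin-like Isg15 1467 and 1519. Oas1a, which senses double-stranded RNA, had 627 and 462 and Ifit3 339 and 401. The signalling factors Stat2 at 35 and 51.4 and Irf9 at 39.7 and 38.4 CPM per kilobase were lower. Ifnb1, interferon beta itself, had 40 and 42 counts, or 3.16 and 3.41 CPM per kilobase.

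The 12 listed genes of MHC class I antigen presentation were all detected, with B2m at 1133 and 1292 and H2-D1 at 490.3 and 459 CPM per kilobase. Of 5 MHC class II genes only Cd74 was detected, at 5.57 and 4.38, and the class II activator Ciita had 0 and 3 counts. The 26 listed genes of the ATF4 stress pathway and serine synthesis were all detected, at a median of 77.1 CPM per kilobase. The first enzyme of serine synthesis, Phgdh, led at 1111 and 901, followed by Shmt2, which makes glycine from serine in mitochondria, at 498 and 391. The amino acid response genes Asns at 232 and 241 and Trib3 at 236 and 186 were lower.

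The interferon-stimulated response element (ISRE) is the site that complexes of STAT2 and IRF9, and other IRFs, are known to bind. Its core was searched as GAAA, any 2 bases and GAAA again, on both strands of the RefSeq promoter windows (GRCm38.p6, 250 bases before to 50 after each start). The 40-base windows below are from 6 genes of the interferon list, with each matched core in capitals, and where cores overlap the capitals run on.
Isg15 (chr4:156200860-156200899, minus strand): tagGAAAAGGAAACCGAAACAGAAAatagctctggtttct
Bst2 (chr8:71537572-71537611, minus strand): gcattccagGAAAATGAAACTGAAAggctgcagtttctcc
Ifit1 (chr19:34640789-34640828, plus strand): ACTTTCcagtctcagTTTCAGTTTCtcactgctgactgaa
Ifit3 (chr19:34583392-34583431, plus strand): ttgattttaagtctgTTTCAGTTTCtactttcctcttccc
Rsad2 (chr12:26456548-26456587, minus strand): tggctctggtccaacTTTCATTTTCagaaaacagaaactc
Cxcl10 (chr5:92349078-92349117, minus strand): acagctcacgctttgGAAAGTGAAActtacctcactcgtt

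The core was present in 16 of the 32 interferon-list promoters in the table, or 50%, and in 502 of all 14058 protein-coding promoters, or 3.57%. The Isg15 window holds 3 overlapping matches and the Bst2 window 2, and the Ifit1 window begins inside a second match. Rsad2, the antiviral enzyme viperin, was at 34.6 and 46.7 CPM per kilobase and the chemokine Cxcl10 at 50.3 and 56.4. The promoter window of Irf7 holds no match to this core.

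Across all protein-coding promoters, sequence content changed most between genes that were detected and those that were not. The median ratio of observed to expected CpG was 0.231 in promoters of 6730 genes not detected. It was 0.678 in the class under 1 CPM per kilobase, and 0.811, 0.810 and 0.783 in the classes from 1 to 10, from 10 to 100 and above 100. The GC box GGGCGG, searched on both strands, was present in 23.8% of promoters of genes not detected and in 55.8%, 71.1%, 70.8% and 68.4% of the 4 classes above. The letters CCAAT were in 38.6% to 41.6% of promoters in every class. The TATA box letters TATAAA, searched on both strands anywhere in the window, were in 21.9% of promoters of genes not detected, in 5.44% of the class from 1 to 10 and in 12.8% of the class above 100. Promoters were matched for 64.0% of protein-coding genes, and a match in letters is not a bound site.

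Eef2, among the 20 leading genes, and Irf7, the highest transcription factor, carry these letters just before their start. The windows run from 45 bases before the start to 4 after it, with the TATA letters in capitals.
Eef2 (chr10:81176586-81176635, plus strand): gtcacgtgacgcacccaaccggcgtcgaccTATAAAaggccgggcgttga
Irf7 (chr7:141266420-141266469, minus strand): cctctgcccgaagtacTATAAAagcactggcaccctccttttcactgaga

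Transcription factors were set apart by their low levels. The table gives a tf_family to 1525 genes, of which 895 were detected, or 58.7%, beside 52.5% of the other protein-coding genes. They were thus detected slightly more often, and their levels were lower. The median of detected transcription factors was 1.57 and 2.10 CPM per kilobase, against 5.18 and 6.28 for the other detected protein-coding genes. Transcription factors held 3.04% and 3.24% of counts. Of 71 families, 6 had no detected gene and 25 had 5 or more.

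Irf7, which drives interferon production and response, was the highest transcription factor at 438 and 361 CPM per kilobase and ranked 111 among protein-coding genes. It held 79.8% of the summed level of the IRF family. Atf5 at 391 and 317 and Atf4 at 323 and 330.4 CPM per kilobase, both bZIP factors of the amino acid and stress response, came next. Ybx1, a cold shock domain protein that binds mRNA, had 217 and 319, and Mbd3, a subunit of the NuRD repressor complex, 205 and 169. The architectural chromatin proteins Hmga1 at 183 and 157 and Hmga1b at 166 and 144 are 99.8% identical over 1538 bases, so their levels are uncertain. Ybx3 at 115 and 172, Trp53 as given above, Carhsp1 at 97.5 and 114, Jund at 125 and 84.7 and Maz at 112 and 88 CPM per kilobase followed. The histone chaperone subunit Ssrp1 at 81.9 and 114, the stress factor Ddit3 at 94 and 97.3 and Srebf2, which turns on cholesterol synthesis, at 93.9 and 86.1 completed the 15 highest.

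The bZIP family had the largest summed level, 1529 and 1443 CPM per kilobase over 44 detected of 53 genes. The C2H2 zinc fingers, the largest family with 609 genes, had 403 detected and a median of 0.703 and 1.08 CPM per kilobase, and summed to 1283 and 1289. Homeobox genes had the lowest share detected of those 25 families, 54 of 225, and 156 had no count. Their highest members were Vax2, a ventral eye and forebrain factor, at 35.3 and 28.1, Six2, of kidney progenitors, at 31.4 and 23.9 and the mesenchymal Prrx2 at 11.6 and 9.77 CPM per kilobase. The bHLH family had 42 of 107 genes detected, led after Srebf2 by the tendon factor Scx at 48.4 and 51.5.

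Of families with 5 or more genes, 6 were detected in full. All 9 MBD, all 10 E2F, all 7 THAP, all 6 zf-MIZ, all 5 SRF and all 8 MH1 genes were detected. The E2F partner Tfdp1 stood at 42.7 and 51.1 and E2f1 at 42.1 and 34.8 CPM per kilobase, Srf at 22 and 21.7 and Smad3, of TGF-beta signalling, at 13.2 and 13.9. In the RHD family, Nfkb2 at 69.2 and 57.4 and Rela at 58.3 and 51.8 led 9 detected of 10 genes. The NuRD subunits Mta1 at 69.5 and 69.5 and Mta2 at 50.2 and 58.2 led the GATA-type zinc fingers, Foxm1, of mitosis, the forkhead family at 40.3 and 41.9, Erf the ETS family at 43.8 and 37.8 and Mybl2 the MYB family at 46.8 and 39.4.

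**Figure D4:**
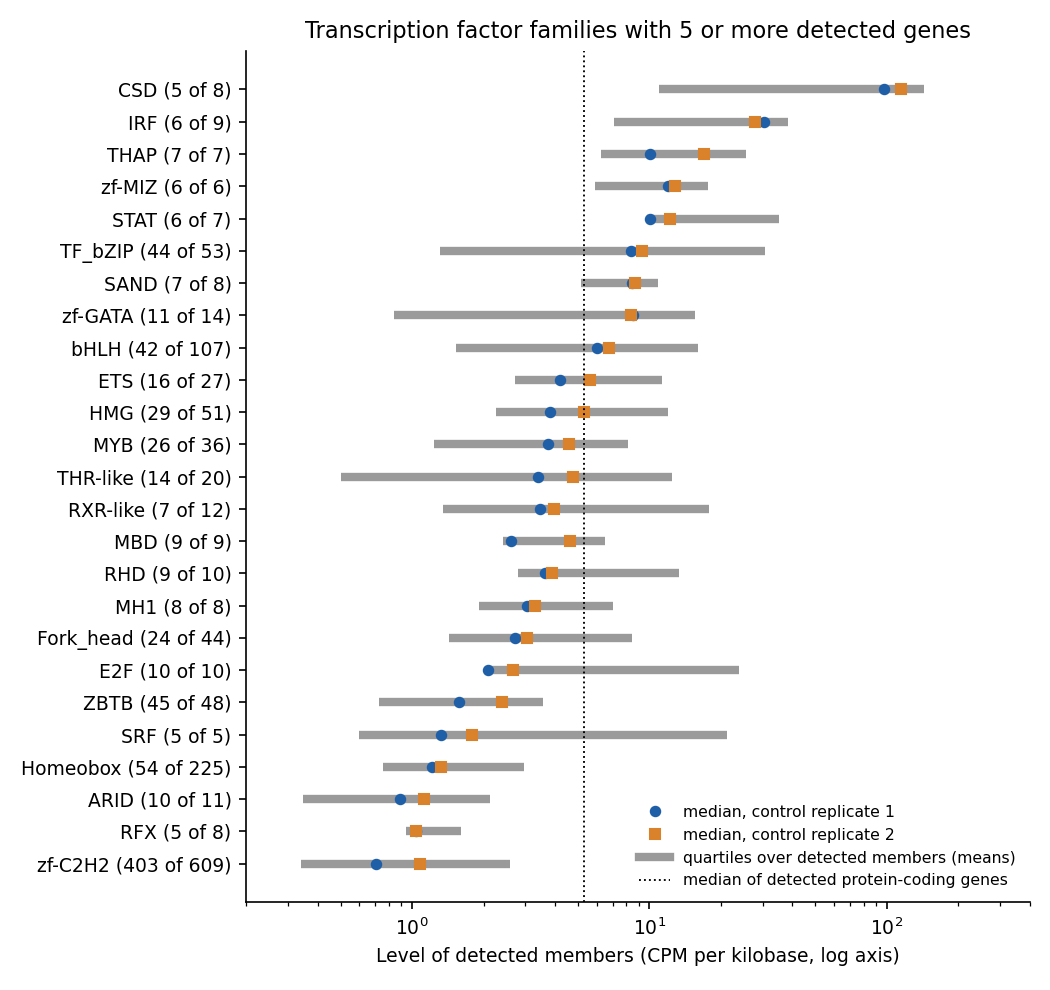
Median level of the detected members in replicate 1 (circles) and replicate 2 (squares) for the 25 transcription factor families with 5 or more detected genes, in CPM per kilobase on a log axis. Grey bars span the quartiles of the members' mean levels, the dotted line is the median of detected protein-coding genes, and names carry the number detected of the number in the table; the cold shock domain family (CSD) lies highest in both libraries, and zf-C2H2 lies lowest in replicate 1 and RFX in replicate 2.

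The 2 libraries ranked genes alike. Over 12541 genes with a mean of 10 counts or more, log2 CPM had a Pearson correlation of 0.983 and a Spearman correlation of 0.986. These genes come from the same line and share the 2 libraries, so the values describe those libraries. The difference in log2 CPM, replicate 1 minus replicate 2, had a median of -0.23 and a median absolute deviation of 0.469, scaled to match an SD. It was within 1 for 95.7% of genes and over 2 for 21. Counting error alone would put nearly all genes within 2 counting SDs, and 35.1% were, so the libraries are not 1 library deposited in duplicate. A spread above counting error is usual between separate libraries. The chi-square per degree of freedom over genes was 36.3.

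The difference moved with gene length. Its rank correlation was -0.34 with length and 0.55 with the GC content of the longest annotated transcript. In the shortest eighth of genes, of median length 953 bases, the median difference was 0.07, and in the longest eighth, of median length 11409 bases, it was -0.45. By level it did not rise steadily, with -0.24 in the lowest eighth, -0.36 in the third and 0.08 in the highest. Its spread was 0.723 in the lowest eighth and 0.318 in the highest. Length, GC content and level move together across genes, and their separate parts in the difference were not tested.

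**Figure D5:**
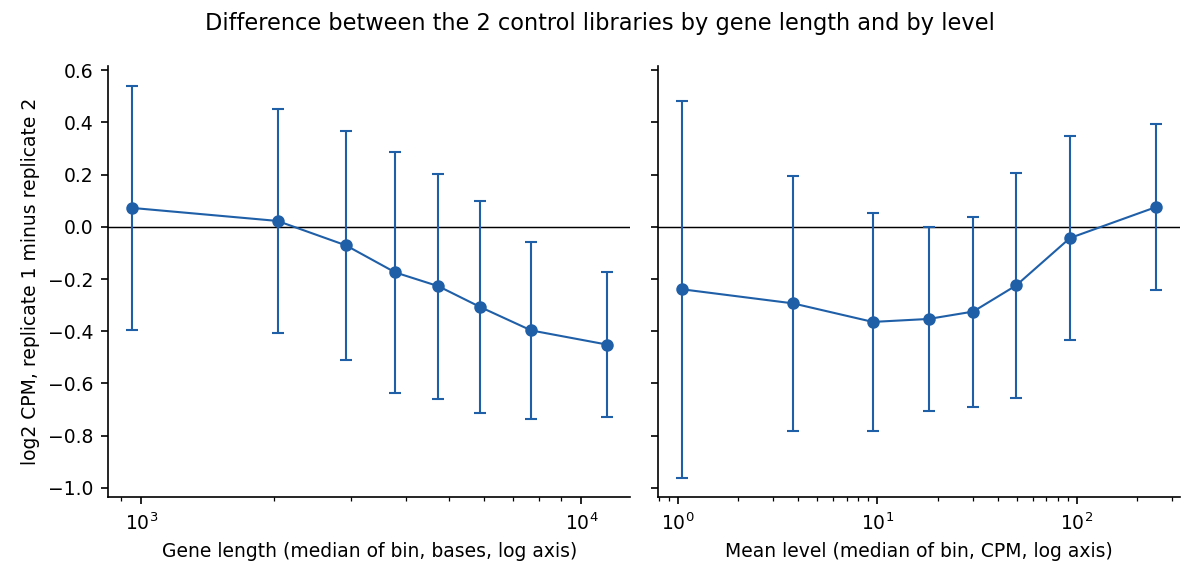
Median difference in log2 CPM, replicate 1 minus replicate 2, over 8 bins of gene length in bases (left) and 8 bins of mean CPM (right), both on log axes. Bars are the median absolute deviation of the genes in a bin, scaled to match an SD; longer genes lie lower, reaching -0.45 in the longest bin.

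Ribosomal protein, respiratory and glycolytic genes leaned towards replicate 1, and chaperones and mitochondrial mRNAs towards replicate 2. Ribosomal protein genes had a median log2 difference of 0.19, with 65 of 79 above 0, nuclear respiratory chain genes 0.22 and glycolysis 0.28. Chaperones had -0.34, with 24 of 28 below 0, and the 12 mitochondrial mRNAs -0.55. All these stand beside a median of -0.23 over all genes compared, which differ in length from some of the lists. Ribosomal protein and nuclear respiratory chain genes had median lengths of 1739 and 1831 bases. The eighth of genes from 1540 to 2496 bases long had a median of 0.02, closer to these 2 lists. Mitochondrial mRNAs had a median length of 784 bases, and the shortest eighth of genes had 0.07. The part of length in the lean of each list was not tested. With TMM scaling, where the median of all genes was -0.03, each list leaned the same way: ribosomal protein genes had 0.39, nuclear respiratory chain genes 0.42, glycolysis 0.48, chaperones -0.14 with 19 of 28 below 0, and mitochondrial mRNAs -0.35. With DESeq2 size factors their medians were 0.42, 0.45, 0.51, -0.11 and -0.32 in the same order. Within these lists the folding chaperones Hsp90ab1 at 810.2 and 1086 and Hspa5 at 274 and 395 CPM per kilobase were higher in replicate 2. The lean was not particular to these lists. With TMM scaling, actins, tubulins and thymosins had 0.39, with 18 of 19 above 0, and MHC class I antigen presentation 0.25, with 11 of 12. Imprinted genes had -0.30, with 6 of 7 below 0. The ribosomal protein, mitochondrial mRNA and MHC class I lists were drawn up after the values had been seen.

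Immediate early genes, which rise within minutes of a stimulus, had a median difference of 0.30, with 15 above 0 and 9 below. With TMM scaling the median was 0.49, with 20 above 0 and 4 below. That list was also drawn up after the values had been seen, so its lean is a description and supports nothing. Egr1 had 1896 and 835 counts and Ier2 3163 and 1600, while Fos, the best known of them, had 30 and 22. Egr1 and Ier2 were among the 8 genes with the largest differences towards replicate 1 of 9380 protein-coding genes with a mean of 5 CPM or more. The others were Sprr1a with 235 and 80 counts, the ribosomal protein genes Rps27a with 6766 and 2737 and Rpl7a with 8694 and 4070, Tmem53, Spon2 and the hypoxia-induced carbonic anhydrase Car9 with 258 and 129.

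Towards replicate 2, Sarnp, an RNA-binding protein of mRNA export, differed most, with 82 and 270 counts. Mfap1a, a splicing factor, had 95 and 253 counts and Mfap1b, 99.3% identical to it over 2328 bases, 65 and 166. The checkpoint kinase Chek1 had 102 and 262 counts, and Ccdc126, Qtrt2, Sdccag8 and Srek1ip1 completed the 8. For Sarnp, a copy identical to 99.3% over 599 bases held 354 and 397 counts, and over the gene and copy the difference in log2 CPM was -0.65 in place of -1.73. For Rps27a and its copies it was 1.03 in place of 1.27, and for Rpl7a and its copies 0.70 in place of 1.05. Of those 9380 genes, 105 differed by more than 1 on the log2 scale and 73.9% by less than 0.5.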

How the data were processed

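RNA from 2 control HT22 libraries was analysed. The authors deposited whole-number read counts per gene, with a gene_biotype, a tf_family and a gene length per row, per the file headers. DESeq2 is named, per the submitters' processing notes, with no version. No source used here gives the aligner, the counter, whether it used strand, or the annotation and build. Positions in the table did not match GENCODE M21, so none is printed, but 96.1% of 52073 shared gene IDs had the length of their merged M21 exons.

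Totals were 16903967 and 16445575 counts. CPM used these totals with no other scaling. Levels were divided by gene length, and log2 CPM used a prior count of 2. A gene needed 3 counts in each library to be detected, which is also the upper limit that a count of 0 allows. Such limits and the Wilson intervals cover counting error only. With 1 group no test between groups was made and no p-value was computed. The 2 MEIS2 columns were mapped and not used.

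Copies were matched with BLAST+ 2.17.0 at 90% identity over at least 150 bases and 50% of the copy, on M21 transcripts. Promoters are RefSeq windows on GRCm38.p6. Python 3.11.15 with pandas 2.3.3 and scipy 1.17.1 was used, and edgeR 4.0.16 and DESeq2 1.42.0 in R 4.3.3 gave the alternative scalings. The summary statistics were tested on simulated data.

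Genes were named by rule. These were the 20 highest protein-coding genes, the 3 highest per biotype with at least 10 detected genes and per transcription factor family with at least 5, and the 15 highest transcription factors. The 4 highest and role-marking members of each list and the 8 largest differences each way were added. Members, lists and rules were chosen with earlier results of these data known, and 7 lists were added after the levels had been seen. Alternatives were other libraries, floors, lengths, scalings and prior counts.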

Additional observations from a re-analysis of the deposited data

How the results depend on the processing

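The limits are 2 libraries of unknown independence, unknown counting rules for reads that match several genes, and lengths that merge all exons of a gene. No paired analysis was possible because there was 1 group and no test between groups. Leaving out each library in turn gave 14625 to 14886 detected genes, protein-coding shares of 96.8% to 97.0%, mitochondrial shares of 0.792% to 1.09%, shares of the top 100 genes of 21.4% to 24.0%, and medians of 4.75 to 5.83 CPM per kilobase for protein-coding genes and 1.57 to 2.10 for transcription factors.

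Summed per kilobase, the protein-coding share was 90.3% in place of 96.9% and that of the top 100 genes 32.2% in place of 22.7%. The median level of protein-coding genes, 5.29 CPM per kilobase as the mean of both libraries, was 7.25 with the length of the longest annotated transcript. It was 14.5 when the per-length values of a library were scaled to a fixed sum (the TPM form), and 0.208 over all genes of the table. For transcription factors the median of 1.84 was 2.30, 5.05 and 0.309 under the same settings. With the longest transcript 203 of 749 named genes were more than 1.5 times higher and 0 lower by that much.

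The median absolute deviation of 0.469 was 0.471 with TMM or DESeq2 size factors, 0.470 with upper quartile scaling, 0.562 over all genes with a count, 0.440 at a mean of 5 CPM or more and 0.477 with a prior count of 0.5. Over the last 3 settings Pearson's r was 0.984, 0.979 and 0.982, and the rank correlation with length -0.184, -0.426 and -0.334. The median difference of -0.23 was -0.03 with TMM and 0.00 with DESeq2 size factors, so differences are best read relative to it. The cause of these shifts was not tested.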

Other observations

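For some genes known to be abundant in many cultured cells, copies or a paralog held more counts than the gene's own row. Tmsb4x, an actin-binding thymosin, had 667 and 825 counts in replicates 1 and 2, while its paralog Tmsb10 had 11820 and 9971. A copy of Tmsb4x was searched for among M21 transcripts and none passed the 90% identity limit. Sumo2 had 69 and 102 counts and its copies 441 and 473, and the proteasome subunit Psmb5 had 2808 and 2127 counts and its copies 4813 and 3872. Eno1, by contrast, kept 81.0% and 80.7% of the counts of its family in its own row.

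Of 196 genes whose matched pseudogenes held at least 100 counts in each library, 24 had more counts in the pseudogenes than in the gene in both. The chaperone gene Hspa8 had 48426 and 51876 counts and its copies 9054 and 9799. These genes were chosen after their values were seen.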
